A study of Mus musculus with 6 samples.

Results

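The genes described here are 33 imprinted genes of the mouse, measured in the mouse cell line GC1-Spg. The line is established, and its labels call the cells spermatogonial, after the dividing germ cells from which sperm arise. Members were chosen by name, and every probe set paired with exactly 1 gene symbol among them was taken, which gave 90 probe sets for 31 of the 33 genes, of 45037 probe sets and 18193 genes in all. The remaining genes were not read. The probe set for H19 was also paired with Mir675, the microRNA gene inside H19, and no probe set was paired with Zrsr1. Cells received 100 nM of scrambled siRNA, the control, or 100 nM of siRNA against mrhl, and total RNA was taken 44 h later. Each group held 3 biological replicates, numbered 1 to 3, each on its own Affymetrix array. No untransfected cells enter the comparison, so both groups carry an siRNA, and the cell line is a single established line. The comparison asks which transcripts differ when mrhl, a noncoding RNA transcribed from within the Phkb gene, is silenced. The submitters state a silencing of almost 80% by quantitative PCR in each of the 3 experiments, which was not analysed here, and mrhl itself was not read on the arrays here.

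An imprinted gene is transcribed mainly from the allele of a single parent, because marks set in the germ line differ between the parental alleles. The marks are DNA methylation at imprinting control regions, set before birth in the male germ line and during oocyte growth in the female one. Long noncoding RNAs such as Kcnq1ot1 and Airn silence neighbouring genes on the allele that transcribes them. Many paternally expressed imprinted genes promote fetal growth, and many maternally expressed ones restrain it. Of the 33 members, 19 are known as paternally and 13 as maternally expressed in most mouse tissues where they are imprinted, and Gnas is known for transcripts of both kinds. These classes are textbook knowledge. The arrays measure both alleles together and cannot show whether imprinting is kept in these cells.

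Promoter windows of 4 members are shown because these are the members whose groups were apart or, for Dlk1, whose difference was the highest among the 27 members tested. Each window covers 250 bases before to 50 bases after a RefSeq transcript start in build GRCm38.p6, 5′ to 3′ on the gene's strand, and capitals mark CG dinucleotides, the sites that DNA methylation uses. The Peg3 window is chr7:6730370-6730669 on the minus strand and the Magel2 window is chr7:62376729-62377028 on the plus strand. The Plagl1 window is chr10:13090582-13090881 on the plus strand and the Dlk1 window is chr12:109452573-109452872 on the plus strand.
Peg3: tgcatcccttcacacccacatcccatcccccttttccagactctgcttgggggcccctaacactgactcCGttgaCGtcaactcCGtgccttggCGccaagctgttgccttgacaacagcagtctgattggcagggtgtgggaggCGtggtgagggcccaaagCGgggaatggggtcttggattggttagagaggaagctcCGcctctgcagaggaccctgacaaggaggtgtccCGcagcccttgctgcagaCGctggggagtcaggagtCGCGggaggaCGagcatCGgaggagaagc
Magel2: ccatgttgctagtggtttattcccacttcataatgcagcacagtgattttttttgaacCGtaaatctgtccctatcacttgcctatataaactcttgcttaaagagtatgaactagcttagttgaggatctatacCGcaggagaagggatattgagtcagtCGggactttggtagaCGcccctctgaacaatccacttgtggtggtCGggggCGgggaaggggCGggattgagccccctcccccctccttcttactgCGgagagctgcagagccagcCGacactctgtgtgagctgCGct
Plagl1: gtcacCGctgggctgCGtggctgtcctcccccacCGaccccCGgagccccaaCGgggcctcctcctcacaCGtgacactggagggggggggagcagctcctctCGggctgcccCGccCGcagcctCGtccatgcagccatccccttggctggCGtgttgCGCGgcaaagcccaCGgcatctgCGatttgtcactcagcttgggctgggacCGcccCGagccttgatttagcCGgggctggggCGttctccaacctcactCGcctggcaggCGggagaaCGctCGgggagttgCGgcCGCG
Dlk1: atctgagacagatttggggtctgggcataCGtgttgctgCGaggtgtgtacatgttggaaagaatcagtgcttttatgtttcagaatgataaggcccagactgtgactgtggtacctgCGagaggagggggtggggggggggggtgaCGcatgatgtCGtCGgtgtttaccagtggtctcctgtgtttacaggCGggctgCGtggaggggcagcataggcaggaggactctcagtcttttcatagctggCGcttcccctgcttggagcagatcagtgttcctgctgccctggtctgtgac

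The 4 windows held 13 CG dinucleotides for Peg3, 10 for Magel2, 26 for Plagl1 and 9 for Dlk1. RefSeq windows were found for 27 of the 33 members, 40 windows in all, and not for Cdkn1c, H19, Impact, Kcnq1, Peg10 and Sgce. These windows had a median of 13 CG dinucleotides and a range of 0 to 45. All 32851 windows of the same length had a median of 7. At least 10 CG dinucleotides stood in 26 of the 40 member windows, or 65.0%, against 43.5% of all windows. TGCCGC, the motif that the imprint-protecting factor Zfp57 recognizes when methylated, was searched on both strands and was present in 9 of the 40 windows, or 22.5%, against 11.6% of all windows. Among the windows shown, Plagl1 held 1 copy. Several members have more than 1 window, and neighbouring windows overlap, so these are descriptions. The windows of Peg3 and Usp29, which are transcribed in opposite directions, share 263 bases, and their starts lie 164 bases apart.

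Expression values were log2 levels per probe set. Medians of the 6 arrays lay within 0.11 of each other. Probe sets with a mean level under the 25th percentile, 3.62, were not tested, which left 33778 probe sets and 14885 genes, where the brightest tested probe set stood for each gene. The number of arrays limits the precision, with a median standard error of 0.192 for a log2 difference. The arrays of equal replicate number deviated together, so differences within a replicate number are given below as well. Of the spermatogonial markers, 11 of 18 had a tested probe set. Their control means ran from 3.48 for Stra8 and 3.69 for Tex14 to 6.38 for Id4 and 7.49 for Uchl1. Among them were Gfra1 at 5.93 ± 0.033 and Zbtb16 at 5.03 ± 0.12 in the controls (SD, n = 3). The mean level lay above that of the median probe set, 5.23, in 3 of the 11. The control mean of Stra8 lay under the filter level, so it was tested through the mrhl siRNA group, at 3.91. Kit, at 3.43 after mrhl siRNA, was tested through the control group. Probe sets of the germ cell genes Ddx4 and Dazl lay under the filter. All 10 Sertoli markers were tested, with control means from 3.65 for Cldn11 and 3.76 for Fshr to 10.7 for Wt1 and 12.3 for Clu. Of 10 markers of peritubular myoid cells and fibroblasts 8 were tested, from 3.47 for Myh11 and 3.97 for Cnn1 to 12.2 for Col1a1 and 12.9 for Vim. The mean level of the spermatogonial list ran from 4.67 to 4.96 in the controls and from 4.68 to 4.94 after mrhl siRNA. That of the myoid and fibroblast list ran from 8.23 to 8.92 in the controls and from 8.71 to 8.84 after mrhl siRNA. Of its 8 log2 differences 7 were positive, where 57.9% of all genes were below 0. The largest, 0.49, was that of Myh11, whose control mean lay under the filter level, so it was tested through the mrhl siRNA group. The mean level of the Sertoli list ran from 6.38 to 6.52 in the controls and from 6.33 to 6.45 after mrhl siRNA. The part of these in the values below was not tested. In such RNA from whole cultures, fewer cells of a kind and less RNA per cell cannot be told apart.

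No imprinted gene passed the test between the groups. Of the 27 members with a tested probe set, 0 had an adjusted p under 0.05 (limma, smallest adjusted p = 0.965), as did 0% of all genes tested. When the fit took the replicate number as a block, the smallest adjusted p among the members was 0.487 (limma), and 0% of all genes passed. An unadjusted p under 0.05 was reached by 2 of the 27, Plagl1 and Magel2, both lower after mrhl siRNA, against 2.84% of all genes (0.86% higher and 1.98% lower). Without mrhl siRNA replicate 2 that count was 0. With the block it was 3, Plagl1 and Magel2 below 0 and Dlk1 above, against 9.03% of all genes (3.14% higher and 5.89% lower). The groups did not overlap in 3 of the 27, Peg3, Plagl1 and Magel2, all lower and all known as paternally expressed, against 8.44% of all genes (2.3% higher and 6.13% lower). All 3 differences within a replicate number had the same sign in 7 members, where 40.5% of all genes did (14.5% higher and 26.1% lower): Dlk1, Snrpn and Airn were above 0, and Peg3, Plagl1, Magel2 and Grb10 below. No member gene differed by 1.5-fold, a size that 1.87% of all genes reached. At the level of probe sets, 52 of the 90 were tested. The unadjusted p was under 0.05 for 4 of these (2 above and 2 below 0), against 3.44% of all probe sets (1.26% higher and 2.18% lower). The groups did not overlap in 7, 2 higher and 5 lower, against 8.4% (2.58% higher and 5.82% lower). Of the 2 higher ones, a probe set of Airn was tested only because of its level after mrhl siRNA. Within replicate numbers, 18 of the 52 had equal signs, against 37.5%. With the block, 8 of the 52 had an unadjusted p under 0.05, against 10.1% of all probe sets. These shares rest on few members, and the filter on low levels decided which of them were tested.

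**Figure D1:**
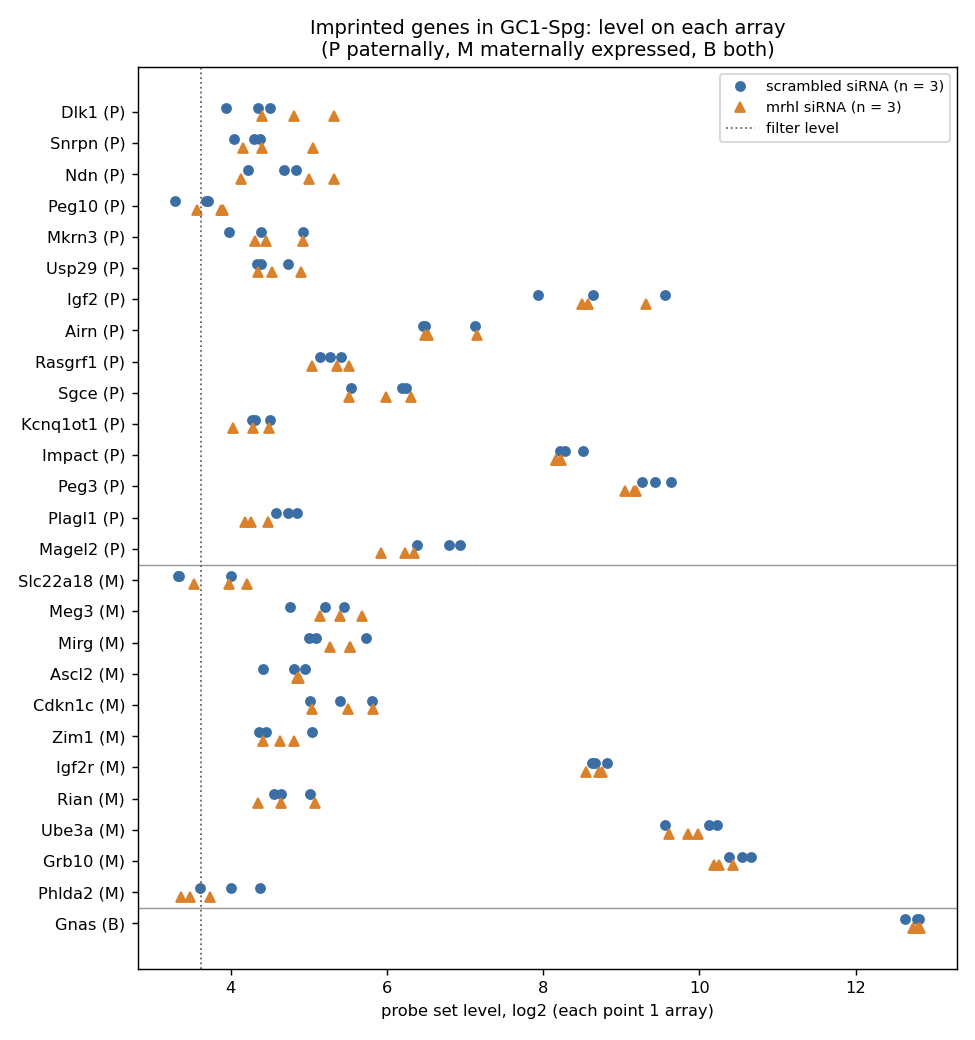
Log2 level of the probe set that stands for each of the 27 tested imprinted genes, on the x axis, with a point for each of the 3 scrambled siRNA arrays (circles) and the 3 mrhl siRNA arrays (triangles). The groups lie apart for Peg3, Plagl1 and Magel2 and overlap for the other 24 genes; the dotted line is the filter level of 3.62.

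Igf2 encodes insulin-like growth factor 2, a secreted growth factor, and its highest arrays in both groups shared a replicate number. The tested probe set stood at 9.55, 7.93 and 8.63 after scrambled siRNA and 9.32, 8.58 and 8.49 after mrhl siRNA. Both arrays of number 1 were the highest of the 6, with a mean of 9.44 against 8.25 for number 2 and 8.56 for number 3. The log2 difference was 0.093 (SE 0.416, 95% interval -0.88 to 1.07) and did not pass (limma, adjusted p = 0.987). The second probe set of Igf2 lay under the filter, with a mean level of 3.17 and a difference of -0.37. Within the 3 numbers the tested probe set gave -0.24, 0.65 and -0.14, so the direction was not shared.

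Igf2r encodes the receptor that takes up Igf2 protein for degradation in lysosomes, and it is known as maternally expressed. Its brighter probe set stood at 8.81, 8.63 and 8.67 after scrambled siRNA and 8.75, 8.71 and 8.54 after mrhl siRNA, a range of levels shared by both groups. The log2 difference was -0.033 (SE 0.141, 95% interval -0.36 to 0.30, limma adjusted p = 0.986), and the other probe set gave 0.15 (SE 0.199). Airn, the paternally expressed noncoding RNA that silences Igf2r in cis, was read by 4 tested probe sets. The brightest stood at 6.48, 6.46 and 7.13 after scrambled siRNA and 6.49, 6.52 and 7.15 after mrhl siRNA. Its 3 within-number differences were 0.011, 0.065 and 0.017, the narrowest spread among the 27 members, and the log2 difference was 0.031 (SE 0.259, 95% interval -0.58 to 0.64, limma adjusted p = 0.993). The dimmest of the 4 stood at 2.10, 3.71 and 3.74 after scrambled siRNA and 3.79, 4.41 and 4.89 after mrhl siRNA, with non-overlapping groups and a log2 difference of 1.18 (SE 0.48). That probe set did not pass (limma, adjusted p = 0.965, and 0.487 with the block), and its control mean of 3.18 lay under the filter level, so it was tested through the mrhl siRNA group. The remaining 2 tested probe sets gave 0.27 and -0.072. Probe sets named for Airn did not move together.

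The Peg3 region holds Peg3, Usp29 and Zim1, and the groups lay apart for Peg3 alone of these 3 genes. Peg3 encodes a large zinc finger protein. Its brightest probe set stood at 9.27, 9.44 and 9.64 after scrambled siRNA and 9.18, 9.05 and 9.17 after mrhl siRNA. Every mrhl siRNA array lay below every control array, the group means were 9.45 ± 0.19 and 9.13 ± 0.073 (SD, n = 3), and the log2 difference was -0.31 (SE 0.152, 95% interval -0.67 to 0.041, limma adjusted p = 0.965). The third probe set by mean level, at 7.78, 7.92 and 8.12 after scrambled siRNA and 7.62, 7.62 and 7.59 after mrhl siRNA, also had groups apart and gave -0.33 (SE 0.145). Between them in level, the second probe set stood at 8.45, 9.59 and 9.40 after scrambled siRNA and 8.80, 9.41 and 9.57 after mrhl siRNA, with overlapping groups and a difference of 0.12 (SE 0.338). In that probe set the replicate 1 arrays were the lowest of both groups. The probe sets of Peg3 thus disagreed in sign, and none passed (limma, adjusted p = 0.965, 0.981 and 0.965). Left without both arrays of number 1, the second becomes the brightest and gives a difference of -0.00070 for the gene.

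Usp29, which shares its promoter region with Peg3 as shown above, stood at 4.34, 4.73 and 4.39 after scrambled siRNA and 4.52, 4.90 and 4.35 after mrhl siRNA. Its groups overlapped and the log2 difference was 0.10 (SE 0.196, 95% interval -0.36 to 0.56, limma adjusted p = 0.973). The difference between Peg3 and Usp29 was not tested. Zim1, a maternally expressed zinc finger gene of the same region, gave 0.0035 (SE 0.217) at group means of 4.61 ± 0.37 and 4.62 ± 0.20 (SD, n = 3).

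**Figure D2:**
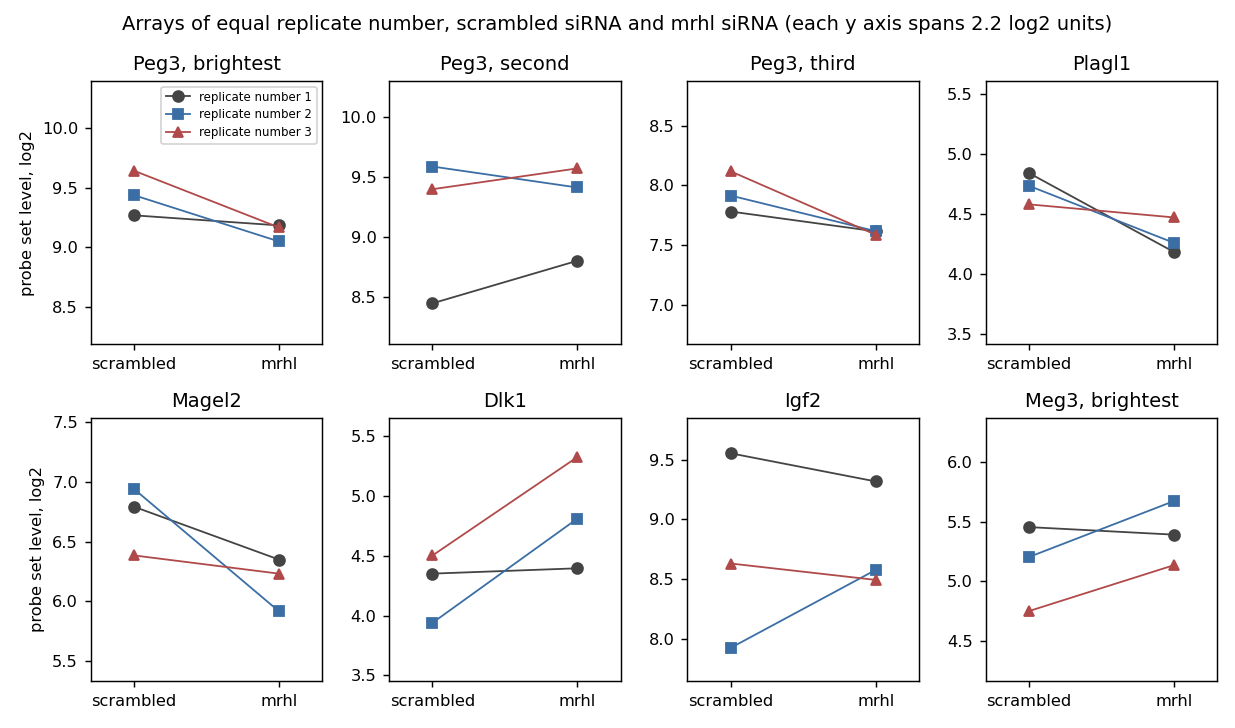
Log2 levels of 8 probe sets in arrays of equal replicate number, scrambled siRNA on the left and mrhl siRNA on the right of each panel, a line for each of the 3 numbers. Lines slope down in all 3 numbers for the brightest and the third probe set of Peg3, for Plagl1 and for Magel2, slope up in all 3 for Dlk1, and take both directions for the second probe set of Peg3, Igf2 and Meg3.

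Magel2 and its neighbours lie in the region whose human counterpart is lost in the Prader-Willi and Angelman syndromes. Magel2, whose product assists ubiquitin ligases in endosomal protein sorting, stood at 6.79, 6.94 and 6.38 after scrambled siRNA and 6.35, 5.92 and 6.23 after mrhl siRNA. The groups did not overlap, and replicate 2 after mrhl siRNA was the lowest array. Group means were 6.71 ± 0.29 and 6.17 ± 0.22 (SD, n = 3). The log2 difference was -0.54 (SE 0.2, 95% interval -1.01 to -0.071), the lowest of the 27 members, and did not pass (limma, adjusted p = 0.965, 0.487 with the block). Within the 3 replicate numbers the differences were -0.44, -1.02 and -0.15, so number 2 showed the largest difference. Only a single probe set was paired with Magel2.

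The other tested paternally expressed genes of the region, Ndn, Mkrn3 and Snrpn, had differences above 0 over all arrays. Those of Ndn and Mkrn3 changed sign when a single array was left out, and that of Snrpn stayed above 0. Without mrhl siRNA replicate 1 the differences were -0.013 for Ndn, -0.047 for Mkrn3 and 0.039 for Snrpn, and without scrambled siRNA replicate 2 that of Mkrn3 was -0.094. Ndn, which encodes the related protein necdin, stood at 4.69, 4.83 and 4.21 after scrambled siRNA and 5.31, 5.002 and 4.13 after mrhl siRNA in its tested probe set, with overlapping groups and a difference of 0.24 (SE 0.322). The other 7 probe sets of Ndn lay under the filter, at mean levels from 1.15 to 2.12, with differences from -1.83 to 1.72. The probe set at -1.83 had groups apart, at 3.12, 2.61 and 3.38 after scrambled siRNA and 0.39, 0.89 and 2.34 after mrhl siRNA, a level at which it was not tested. Snrpn, which encodes a spliceosome protein, had 1 probe set of its own, with 0.30 (SE 0.246) and the within-number differences 0.68, 0.093 and 0.12, and another 6 probe sets were shared with Snurf and were not used. The zinc finger gene Mkrn3 gave 0.13 (SE 0.274). The probe set of Peg12 lay under the filter, with a mean of 0.35 and array values from -1.37 to 3.39.

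Ube3a, the ubiquitin ligase gene whose maternal copy is lost in Angelman syndrome and which is imprinted mainly in neurons, had 6 tested probe sets. The brightest stood at 9.56, 10.23 and 10.12 after scrambled siRNA and 9.61, 9.86 and 9.98 after mrhl siRNA, with a difference of -0.16 (SE 0.213, 95% interval -0.66 to 0.34, limma adjusted p = 0.965). Of the 6 probe sets 5 were below 0, where 56.2% of all probe sets tested were. The second had groups apart, at 6.37, 6.31 and 6.59 after scrambled siRNA and 6.23, 6.08 and 6.18 after mrhl siRNA, and gave -0.26 (SE 0.145). The lowest difference was -0.46 (SE 0.238) and the highest 0.055 (SE 0.193). The probe sets share the transcript's source and are not replicates, and none passed (limma, adjusted p from 0.965 to 0.983).

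**Figure D3:**
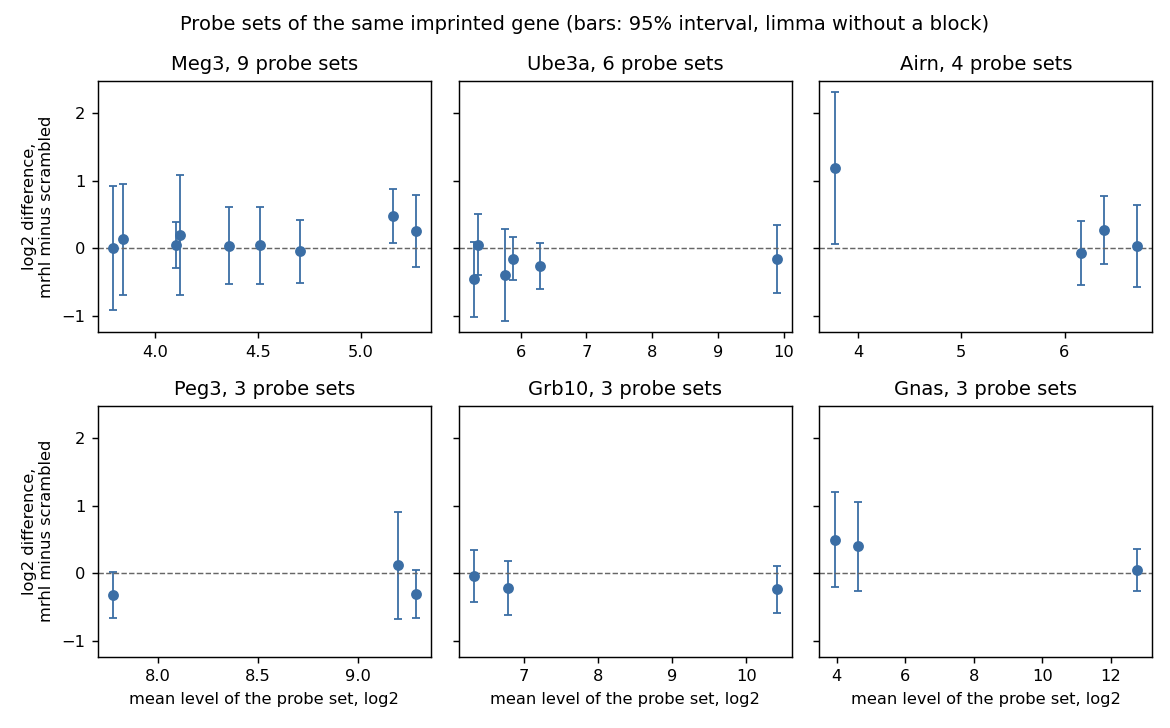
Log2 difference, mrhl siRNA minus scrambled siRNA, against the mean log2 level of each tested probe set, for the 6 imprinted genes with at least 3 tested probe sets. Bars are 95% intervals of the limma fit without a block, 3 arrays a group. Meg3 spreads from -0.042 to 0.48, Ube3a lies below 0 in 5 of 6 and Airn reaches 1.18 in its dimmest probe set.

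The Dlk1 and Meg3 region pairs a paternally expressed protein gene with maternally expressed noncoding RNAs. Dlk1, a membrane protein related to Notch ligands that holds back differentiation, stood at 4.35, 3.94 and 4.50 after scrambled siRNA and 4.40, 4.81 and 5.33 after mrhl siRNA. The groups overlapped through replicate 1 after mrhl siRNA, and the means were 4.26 ± 0.29 and 4.84 ± 0.47 (SD, n = 3). The log2 difference, 0.58 (SE 0.266, 95% interval -0.042 to 1.20), was the highest of the 27 members and did not pass (limma, adjusted p = 0.965, 0.487 with the block). It was 0.044, 0.87 and 0.82 within the 3 numbers, so number 1 showed almost none of it. The other Dlk1 probe set lay under the filter and gave -0.33.

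Meg3, the noncoding RNA of the maternal allele, had 11 probe sets, of which 9 were tested. The brightest stood at 5.45, 5.20 and 4.75 after scrambled siRNA and 5.39, 5.67 and 5.14 after mrhl siRNA, with overlapping groups and a difference of 0.26 (SE 0.227). The second, at 4.97, 4.84 and 4.96 after scrambled siRNA and 5.30, 5.69 and 5.21 after mrhl siRNA, had groups apart and a difference of 0.48 (SE 0.169), which did not pass (limma, adjusted p = 0.965). The other 7 tested probe sets lay between -0.042 and 0.20. Rian, the host RNA of many small nucleolar RNAs, gave -0.045 (SE 0.226) at means of 4.74 ± 0.25 and 4.69 ± 0.36 (SD, n = 3), and another probe set of it, under the filter at a mean of 2.68, had groups apart and -0.76. Mirg, a host of microRNAs, gave 0.16 (SE 0.221) in its tested probe set and -0.26 in the one under the filter. The arrays read these host RNAs and not the small RNAs processed from them.

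Kcnq1ot1, the paternally expressed noncoding RNA that silences a cluster of maternally expressed neighbours, had 1 tested probe set of 6, at 4.51, 4.27 and 4.31 after scrambled siRNA and 4.03, 4.49 and 4.28 after mrhl siRNA, with a difference of -0.10 (SE 0.168, 95% interval -0.49 to 0.29, limma adjusted p = 0.969). Its other 5 probe sets lay under the filter, with differences from -1.29 to 0.048. Among the maternally expressed genes of the cluster, Cdkn1c, the cyclin-dependent kinase inhibitor p57, stood at 5.81, 5.02 and 5.40 after scrambled siRNA and 5.50, 5.03 and 5.82 after mrhl siRNA and gave 0.041 (SE 0.269). The groups of Cdkn1c overlapped over nearly their whole range. Phlda2, which restrains placental growth, stood at 3.60, 4.37 and 4.004 after scrambled siRNA and 3.73, 3.36 and 3.47 after mrhl siRNA, where 3 of the 6 arrays, replicates 2 and 3 after mrhl siRNA and replicate 1 of the controls, lay under the filter level. Its mean after mrhl siRNA, 3.52, also lay under that level, so it was tested through the control group. Its log2 difference was -0.47 (SE 0.221, 95% interval -0.99 to 0.046, limma adjusted p = 0.965), with the opposite sign in number 1. With values under the 25th percentile of all array values set to it, the difference was -0.32. The transporter gene Slc22a18 stood at 3.34, 3.999 and 3.32 after scrambled siRNA and 4.20, 3.98 and 3.52 after mrhl siRNA, with overlapping groups. Its control mean of 3.55 lay under the filter level, so it was tested through the mrhl siRNA group. Its difference was 0.35 (SE 0.254), or 0.17 with values under the 25th percentile of all array values set to it. The other probe set of Slc22a18, under the filter, gave -0.47. The trophoblast transcription factor gene Ascl2 gave 0.14 (SE 0.171). The potassium channel gene Kcnq1 had a single probe set, under the filter at a mean of 3.46, with 0.76.

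Plagl1 encodes a zinc finger transcription factor known to regulate other imprinted genes, and its brightest probe set stood at 4.84, 4.74 and 4.58 after scrambled siRNA and 4.18, 4.26 and 4.47 after mrhl siRNA. The groups did not overlap, at means of 4.72 ± 0.13 and 4.31 ± 0.15 (SD, n = 3). The log2 difference was -0.41 (SE 0.152, 95% interval -0.77 to -0.060, limma adjusted p = 0.965, 0.487 with the block), and within the 3 numbers it was -0.66, -0.48 and -0.11. The means over both arrays of each number lay between 4.50 and 4.53. The second tested probe set, at 3.56, 4.41 and 4.80 after scrambled siRNA and 4.32, 3.38 and 4.02 after mrhl siRNA, overlapped and gave -0.35 (SE 0.361), and a probe set under the filter gave -0.62. All 3 were below 0, as were 55.2% of all probe sets without a filter. In number 1 the second probe set gave 0.76, and the one under the filter took both signs within the numbers.

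Gnas encodes the stimulatory G protein alpha subunit, and its brightest probe set stood at 12.81, 12.63 and 12.79 after scrambled siRNA and 12.80, 12.74 and 12.83 after mrhl siRNA. The difference was 0.044 (SE 0.134, 95% interval -0.27 to 0.36, limma adjusted p = 0.981), the smallest standard error of the 27 members, and the 2 other tested probe sets, at means of 4.62 and 3.94, gave 0.39 and 0.49. Another 2 probe sets of Gnas lay under the filter, at means of 3.19 and 0.89, and gave -0.87 and -1.79. Which of the Gnas transcripts each probe set reads was not resolved here. Grb10, an adaptor protein that restrains insulin and IGF signalling, is maternally expressed in most tissues and paternally in neurons. Its brightest probe set stood at 10.38, 10.55 and 10.66 after scrambled siRNA and 10.25, 10.19 and 10.43 after mrhl siRNA, and its difference was -0.24 (SE 0.15, 95% interval -0.59 to 0.11, limma adjusted p = 0.965). The other 2 probe sets of Grb10 gave -0.22 and -0.041, and the groups overlapped in each of the 3. All 3 probe sets of Grb10 were below 0, where 56.2% of all probe sets tested were. Impact, which inhibits the stress kinase GCN2, stood at 8.27, 8.50 and 8.21 after scrambled siRNA and 8.16, 8.16 and 8.22 after mrhl siRNA and gave -0.15 (SE 0.143, 95% interval -0.48 to 0.19, limma adjusted p = 0.965). The second tested probe set of Impact gave -0.29 (SE 0.183), and another, under the filter, gave -0.093. All 3 probe sets of Impact were below 0, as were 55.2% of all probe sets without a filter, with overlapping groups in each.

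The next 5 genes had 1 tested probe set or none. Sgce, the sarcoglycan epsilon gene, gave -0.055 (SE 0.271), and its neighbour Peg10, derived from a retrotransposon, stood at 3.71, 3.67 and 3.28 after scrambled siRNA and 3.89, 3.56 and 3.88 after mrhl siRNA. The groups of Peg10 overlapped, and its control mean of 3.55 lay under the filter level. Its difference was 0.22 (SE 0.179), or 0.13 with values under the 25th percentile of all array values set to it. The Ras exchange factor gene Rasgrf1 gave 0.026 (SE 0.173) in its tested probe set and -1.01 and 0.12 in those under the filter. Mest, an alpha/beta hydrolase family gene, and Nnat, which encodes neuronatin, were read by 1 probe set each, both under the filter. Mest stood at 2.96, 3.93 and 2.52 after scrambled siRNA and 2.17, 0.99 and 3.30 after mrhl siRNA and Nnat at 0.57, 3.16 and 3.29 after scrambled siRNA and 2.91, 3.38 and 2.58 after mrhl siRNA. Spreads of over 1 log2 unit within a group mark both.

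Probe sets under the filter varied more between arrays. The 38 untested probe sets had a median SD among the controls of 0.663, against 0.255 for the 52 tested ones. Their differences ran from -1.83 to 1.72, with 25 of 38 below 0 and groups apart in 2, those of Ndn and Rian. Among all 45037 probe sets without a filter, 55.2% were below 0 and 8.77% had groups apart, shares that include the tested probe sets. Of the 90 member probe sets, 47 were below 0. Over all 90 probe sets without a filter, the groups did not overlap in 9, against 8.77% of all 45037 probe sets. The log2 differences had a median of -0.041 over the 90 and -0.033 over all.

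Paternally and maternally expressed members were also set side by side. The 15 tested paternal genes had a median log2 difference of 0.031, with 9 above and 6 below 0, and ranged from -0.54 for Magel2 to 0.58 for Dlk1. The 11 tested maternal genes had a median of 0.0035, with 6 above and 5 below 0, and ranged from -0.47 for Phlda2 to 0.35 for Slc22a18. Both of these genes had a group mean under the filter level. The median over all 14885 genes was -0.040, with 57.9% below 0. Within replicate numbers 1, 2 and 3 the median was 0.0011, 0.093 and -0.038 for the paternal and -0.060, -0.020 and 0.099 for the maternal genes. The mean level of the paternal genes ran from 5.67 to 5.79 in the controls and from 5.70 to 5.78 after mrhl siRNA, and that of the maternal genes from 5.94 to 6.23 and from 6.03 to 6.07. Both ranges overlap between the groups. All 3 genes whose groups lay apart in their brightest tested probe set were paternal. Over all tested probe sets, the groups lay apart in 5 of 22 paternal ones, 1 higher and 4 lower. They did so in 2 of 27 maternal ones, 1 higher and 1 lower, against 8.4% of all probe sets tested. Whether the classes differ in that was not tested.

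**Figure D4:**
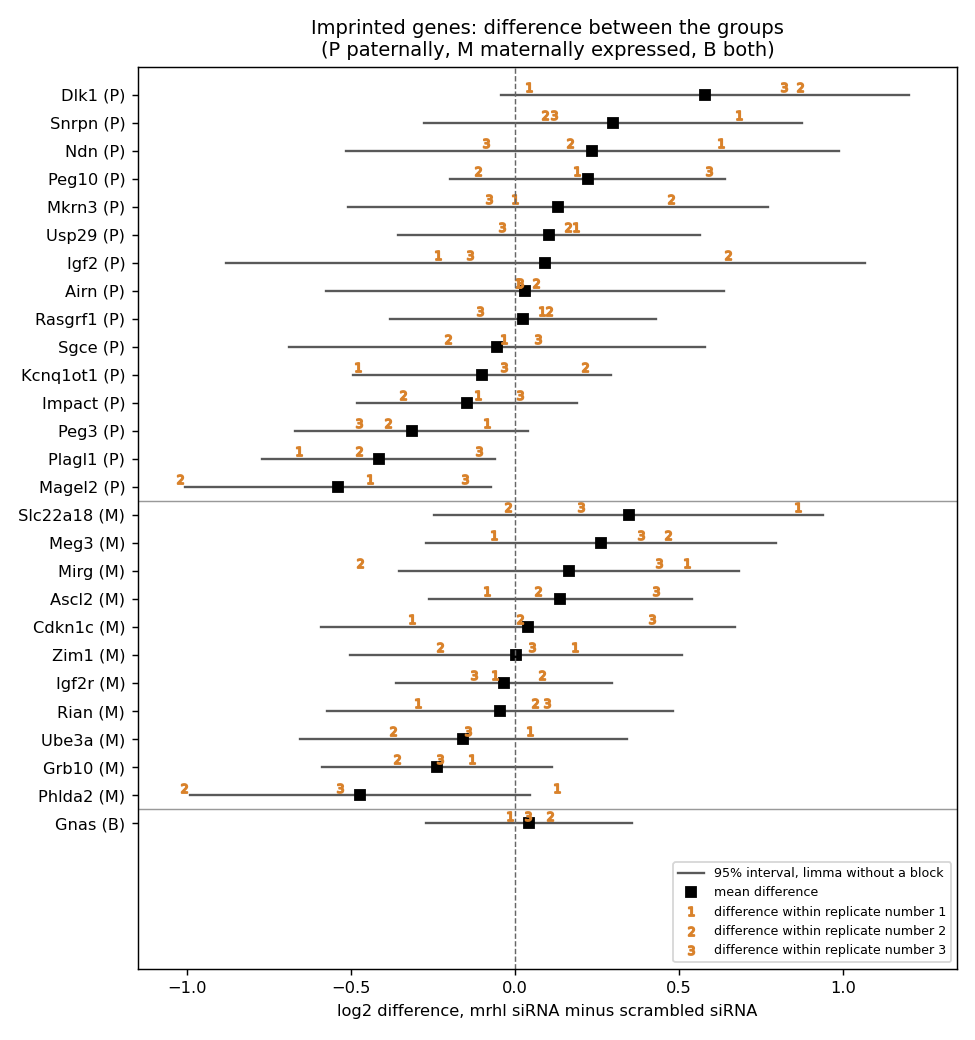
Log2 difference, mrhl siRNA minus scrambled siRNA, for the 27 tested imprinted genes, ordered within the paternally and the maternally expressed class. Squares are mean differences, bars are 95% intervals of the limma fit without a block (3 arrays a group), and the digits are the differences within each replicate number. Intervals of Plagl1 and Magel2 lie below 0 before adjustment, and the others span 0.

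Differences between replicate numbers were described by the range of the 3 number means, each over a scrambled and an mrhl siRNA array. It was 1.18 for Igf2, 0.829 for Ndn, 0.753 for Sgce and 0.708 for Mkrn3. A range over 3 means of 2 arrays tends to be larger than a difference between 2 means of 3, so they were not compared.

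Other imprinted genes, from lists of related genes, did not pass either. Of 13 other paternally expressed genes 5 were tested, 1 above and 4 below 0, with -0.40 (SE 0.175) for the Polycomb-associated gene Sfmbt2, whose groups did not overlap, and -0.21 (SE 0.139) for the phosphatase gene Inpp5f. Of 24 other maternally expressed genes 16 were tested, 8 above and 8 below 0, with 0.42 (SE 0.275) for the transcription factor gene Klf14 and -0.30 (SE 0.27) for the phospholipid flippase gene Atp10a. None of the 21 passed (limma, smallest adjusted p = 0.965).

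Genes that set or keep imprints did not pass either (limma, smallest adjusted p = 0.965). Of 26 listed genes 23 were tested, 7 above and 16 below 0, with a median log2 difference of -0.097, against -0.040 over all genes. Within replicate numbers 1, 2 and 3 the list's median was 0.062, -0.22 and -0.064, so number 1 had the opposite sign. The DNA methyltransferase genes Dnmt3a and Dnmt3b gave -0.40 (SE 0.219) and -0.37 (SE 0.195). The maintenance methyltransferase gene Dnmt1 gave 0.11 (SE 0.151), the zinc finger gene Zfp57 0.49 (SE 0.448) and the insulator factor gene Ctcf -0.18 (SE 0.152). Of 15 genes of IGF signalling 13 were tested, 7 above and 6 below 0. The insulin receptor substrate gene Irs2 gave 1.32 (SE 0.615), from 4.55 ± 0.77 to 5.87 ± 1.19 (SD, n = 3), with overlapping groups. Within the 3 replicate numbers Irs2 gave 0.76, 1.45 and 1.74, all above 0. Igf2bp1, whose product binds Igf2 mRNA, gave 0.39 (SE 0.19). Neither passed (limma, adjusted p = 0.965 for each, and 0.487 for Irs2 and 0.487 for Igf2bp1 with the block).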

How the data were processed

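RNA of 6 GC1-Spg cultures, 3 per group, was measured, each on its own 1-colour array. The deposited values are log2 expression values per probe set. GCOS and PLIER are named per the submitters' processing notes, and what they did about background and differences between arrays is not stated in the labels. The values, some of them negative, fit a log2 scale and were used as deposited. The table held 45101 rows, of which 64 controls were left out. The probe table paired 34945 probe sets with exactly 1 symbol and 932 with several, and did not list 9160.

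The comparison was fitted in R 4.3.3 with limma 3.58.1 (lmFit, then eBayes) over all probe sets at or above the 25th percentile of mean level, differences being mrhl siRNA minus scrambled siRNA. P-values had Benjamini-Hochberg adjustment and a threshold of 0.05. The fit was checked on simulated data with independent noise on each array and shifts larger than the difference of any member gene. That check does not cover deviations shared by arrays of equal replicate number. Equal replicate numbers were read as pairs, since deviations from the group means correlated at 0.534, 0.201 and 0.567 for equal numbers, all above 0.1, and from -0.518 to 0.0684 for unequal ones; the labels give the numbers, and the design text speaks of independent experiments. Every member is named; of each related list, the genes with the smallest 2 unadjusted p were to be named, and Dnmt1, Zfp57, Ctcf and the marker genes named were added after their values were seen. Levels of a probe set depend on its probes and do not order genes. Members and lists were chosen with earlier results of these data known. Alternatives were quantile normalization, array medians set to 0, other filters, a floor, the replicate block, another variance model, array weights, averaging each gene's probe sets and arrays left out; the block with the trended and robust variance model was added after seeing the data. Figures were drawn with matplotlib 3.10.9.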

Additional observations from a re-analysis of the deposited data

How the results depend on the processing

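With 3 arrays a group, 0 members had an adjusted p under 0.05 in the main analysis and in all 17 alternatives (limma), with a smallest adjusted p of 0.283, for Magel2, under the replicate block with trended and robust variance. The count with an unadjusted p under 0.05, 2 as reported beside 2.84% of all genes, was 1 with a filter at the median probe set (14 members tested; 3.13% of all genes), 1 with the mean of a gene's tested probe sets (3.29%), 4 with array weights (5.82%), 3 with the replicate block (9.03%) and 4 under that block with the trended and robust variance (14.1%), so the share over all genes moved too. With 1 array left out it was 0 to 3, beside 1.70% to 6.49% of all genes. It was 0 without mrhl siRNA replicate 2, and 1 without scrambled siRNA replicate 1 or 2. The count of members whose groups do not overlap was 3 as reported, beside 8.44% of all genes. It was 2 with the filter at the median probe set (14 members tested, 8.66% of all genes) and 2 with the mean of the probe sets (8.28%). It was 7 when read as equal signs in all replicate numbers (the replicate block, with either variance; 40.5% of all genes), 8 without both arrays of number 1 (34.7%), and 4 to 7 with 1 array left out (12.9% to 28.1%), where fewer arrays make separation easier. The paternal median of 0.031 was -0.055 with the filter at the median probe set, 0.097 with array weights and 0.093 with the mean of the probe sets, and ran from -0.059 to 0.055 with 1 array left out. The maternal median of 0.0035 ran from -0.055 to 0.12 with 1 array left out. Of the 27 genes, 12 kept their sign in every alternative in which they were tested, among them Plagl1, Magel2, Dlk1, Meg3, Grb10 and Ube3a. Peg3 counts among the 12 at -0.00070 without both arrays of number 1, read there through another probe set. The cause of the other changes was not tested.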
